A study of Mus musculus with 12 samples.

Results

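The 10 genes described here encode proteins or a regulator of the hepatic acute phase response: the serum amyloid A genes Saa1, Saa2 and Saa3, the orosomucoid genes Orm1, Orm2 and Orm3, lipocalin 2 (Lcn2), haptoglobin (Hp), serum amyloid P component (Apcs) and suppressor of cytokine signalling 3 (Socs3). They were chosen by gene symbol, as genes driven by interleukin 6 and STAT3, and each symbol matched 1 of the 54232 Ensembl genes counted. All 10 passed the filter on low counts that left 14168 genes for testing. Their mRNA levels were compared between whole livers of pair-fed (PF, n = 5) and alcohol-fed (AF, n = 7) male C57BL6/J mice with an age label of 8 weeks, 1 library per mouse, in an intragastric model of alcohol-associated steatohepatitis (ASH). PF mice received a high-fat liquid diet for 8 weeks, and AF mice received an isocaloric diet with ethanol raised to 27 g/kg/day. The study's methods add a weekly binge of 5 g/kg, with livers taken on the day after the last one, and describe a Western-type solid diet or chow in a first period. They name the Western-type diet again, eaten freely, beside the intragastric feeding with ethanol, and name only the liquid diet for PF mice. Livers are named below by group and replicate number, as PF1 or AF1, and these numbers carry no order.

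In the acute phase response, interleukin 6 binds its receptor on hepatocytes, the shared subunit gp130 activates JAK kinases, and phosphorylated STAT3 enters the nucleus and induces genes of secreted plasma proteins. Interleukin 1 and tumour necrosis factor act beside it through NF-kB and C/EBP factors, and Socs3, itself a STAT3 target, binds gp130 and the JAK kinases and ends the signal. Serum amyloid A and serum amyloid P component are the main inducible acute phase proteins of the mouse, in which C-reactive protein responds weakly. The proteins are made mostly by hepatocytes, with the exceptions of Saa3, which is also made by macrophages and fat cells, and lipocalin 2, which is also stored in neutrophil granules.

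Between 24129900 and 28594027 reads per PF liver and between 25099033 and 30578639 per AF liver were counted on genes. Levels are given as CPM, the reads of a gene relative to a library size scaled with the TMM factors of edgeR (0.832 to 0.901 for PF, 0.880 to 1.36 for AF). Statements below on overlap of the groups in CPM hold for this scaled level. On library totals, more AF livers lay above the lowest PF liver for Saa1, Orm1, Orm2, Hp and Apcs. The 8 hepatocyte markers were detected in every library, with Alb alone taking 6.63 to 9.22% of the reads in PF and 4.56 to 8.05% in AF livers. PF1 stood apart by a summed level of 12 neutrophil markers of 1216 CPM, with 262 CPM as the next highest PF value, and AF1 by 66 reads of the fat cell gene Adipoq against 0 to 2 in the other libraries. PF1 was also the highest PF liver for 7 of the 10 genes, including Saa1, Saa2, Orm1, Orm2 and Hp, and the part of its neutrophil marker RNA in these levels was not tested. Both livers were kept, and the counts of called acute phase and signalling genes are also given without them.

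Of the 10 genes, 5 had lower mRNA levels in AF than in PF livers by edgeR's quasi-likelihood test (Benjamini-Hochberg adjusted p below 0.05), and 0 had higher levels. They were Saa1, Saa2, Orm1, Orm2 and Hp. Among all genes tested, 17.8% were lower and 22.0% were higher in AF livers, or 39.8% in either direction. At an unadjusted p below 0.05, 6 of the 10 were lower and 0 higher, the added gene being Apcs, against 22.3% lower and 27.3% higher among all genes tested. The median log2 fold change of the 10 genes was -0.87 and that of all genes tested was 0.04. In whole liver, fewer cells of a type and less RNA per cell cannot be told apart. The count of lower genes changed with the livers included. It was 0 without PF1 and 0 without PF3, 1 without AF3, 2 without PF4 or AF7, and 3 without PF2. It was 4 without PF5 or AF5, 5 without AF1, AF2 or AF4, and 6 without AF6. The median log2 fold change of the 10 genes was -0.78 without PF1 and -0.91 without PF3. Without PF1 and AF1 together the count was 0 and this median -0.67. With library totals in place of TMM scaling the count was 3 and this median -0.55. Library totals moved the median of all genes to 0.40 and the share of lower genes to 6.62%.

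**Figure D1:**
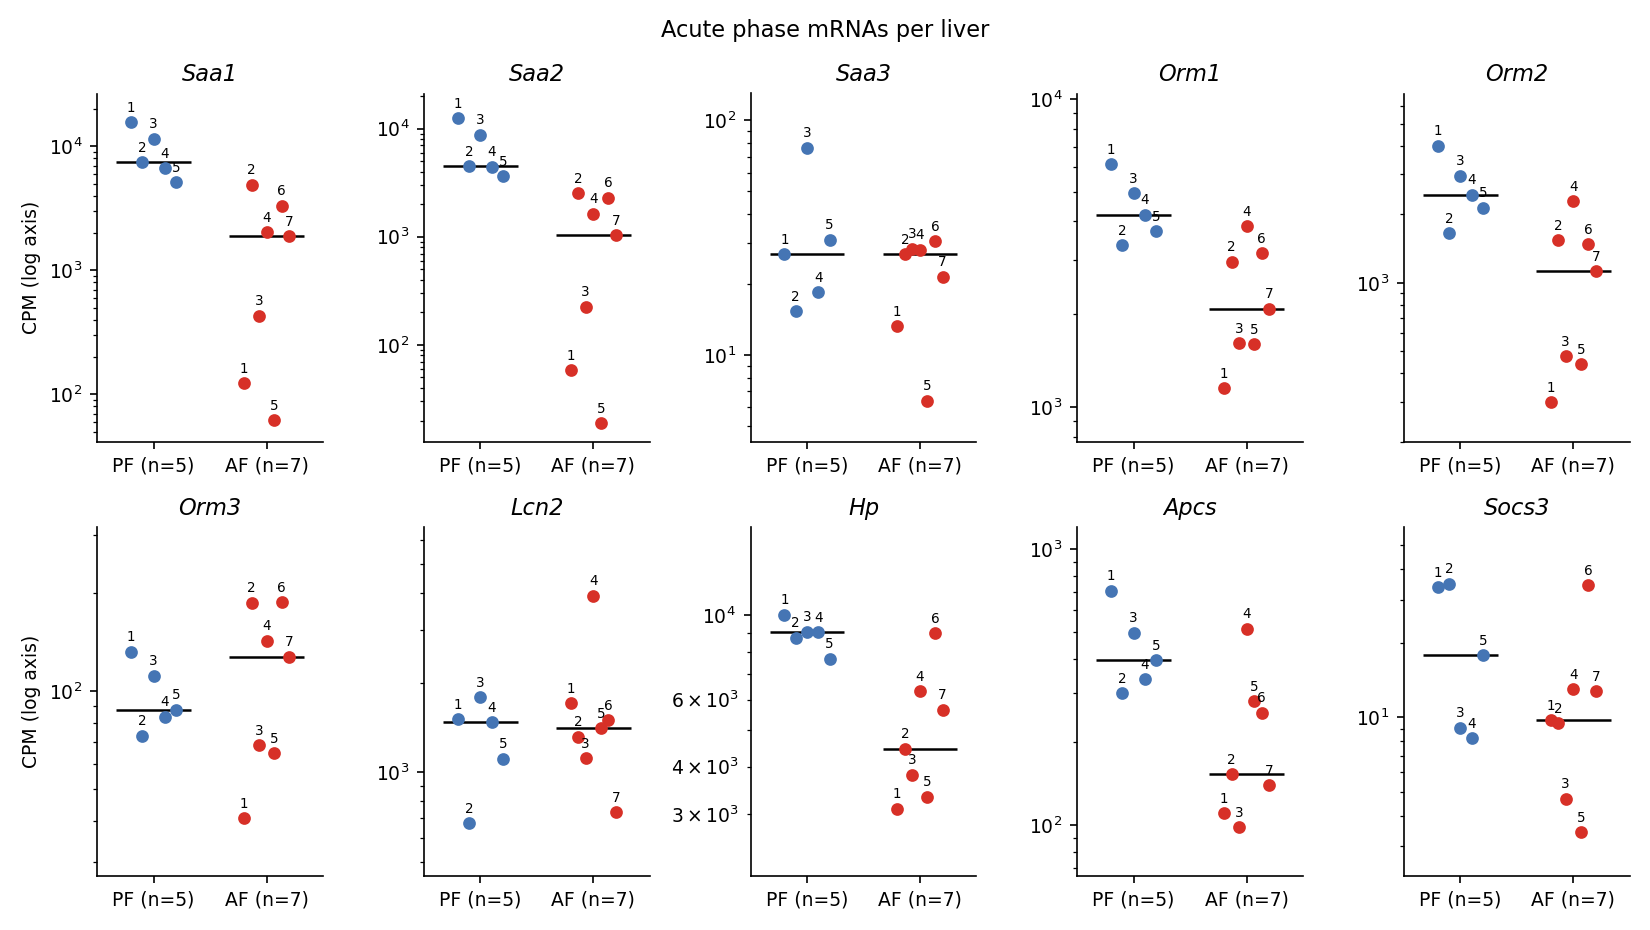
mRNA level of each of the 10 acute phase genes in every liver, as CPM on a log axis, for PF (blue, n = 5) and AF mice (red, n = 7). Each point is 1 liver, labelled with its replicate number, and the bar is the group median. On this TMM-scaled level the groups are separate for Saa1 and Saa2 and overlap for the other 8 genes.

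**Figure D2:**
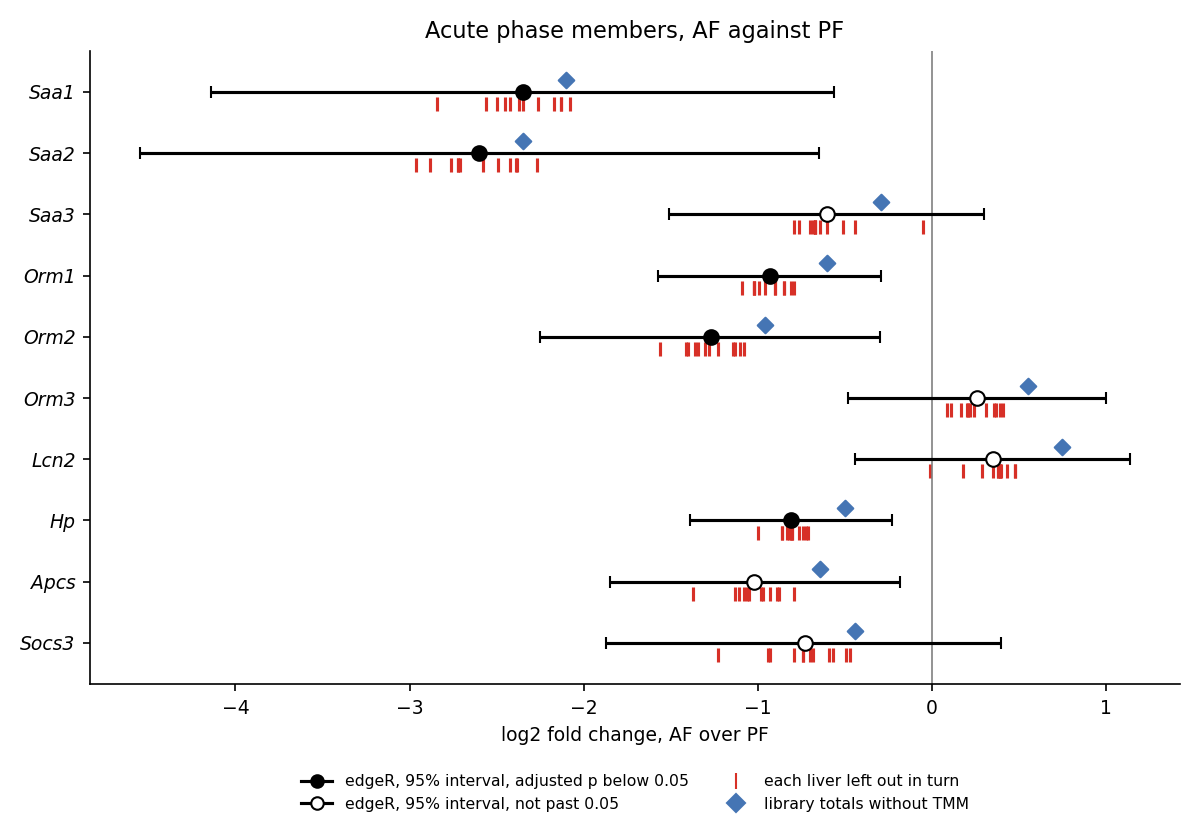
Log2 fold change of AF over PF for the 10 genes by edgeR, with 95% intervals as bars. Filled circles have an adjusted p below 0.05, red ticks are the values with each liver left out in turn, and blue diamonds are values with library totals in place of TMM. The 5 filled genes lie between -2.60 (Saa2) and -0.81 (Hp).

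Saa1 and Saa2 encode serum amyloid A proteins that travel on high-density lipoprotein and are among the most inducible liver products. They lie head to head on chromosome 7 of GRCm38, Saa1 at chr7:46740497-46742980 on the minus strand and Saa2 at chr7:46751790-46754313 on the plus strand, and their mRNAs were 93.9% identical in an end to end alignment, with 99 bases as the longest exact shared stretch. Their upstream regions were alike as well, with 94.8% identity over the 250 bases before the RefSeq start sites. Both are printed 5′ to 3′ from RefSeq (GRCm38.p6), to show what the pair shares upstream, from chr7:46742981-46743230 on the minus strand for Saa1 and chr7:46751583-46751789 on the plus strand for Saa2, with the letters TTGCNNAA of the C/EBP motif in capitals.
Saa1: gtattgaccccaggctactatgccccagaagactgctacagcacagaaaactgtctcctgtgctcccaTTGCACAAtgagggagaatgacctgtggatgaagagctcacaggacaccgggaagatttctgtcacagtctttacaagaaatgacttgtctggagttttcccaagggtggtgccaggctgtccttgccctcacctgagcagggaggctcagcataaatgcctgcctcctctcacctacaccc
Saa2: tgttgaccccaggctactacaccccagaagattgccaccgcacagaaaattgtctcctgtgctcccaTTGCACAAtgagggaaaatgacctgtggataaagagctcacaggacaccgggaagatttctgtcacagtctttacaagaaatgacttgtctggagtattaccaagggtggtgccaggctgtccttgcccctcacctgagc
The matching letters began 182 bases before the start site in Saa1 and 183 in Saa2. On either strand, these letters occurred in 9.56% of 32851 promoter windows of 250 bases. The Saa2 sequence is shown up to the first base of the longest annotated transcript, which starts further upstream than the RefSeq one.

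In the PF livers PF1 to PF5, Saa1 stood at 15669, 7416, 11526, 6663 and 5111 CPM. In the 7 AF livers it had a minimum of 61.9, a median of 1890 and a maximum of 4919 CPM, so that every AF liver lay below every PF liver on this TMM-scaled level. On library totals the groups overlapped through AF2, which had 127825 Saa1 reads of 25099033, against 112972 of 25243606 in PF5. The lowest values belonged to AF5 with 61.9, AF1 with 123 and AF3 with 433 CPM, and the other AF livers had at least 1890 CPM. The mean was 5.08 times lower in AF (1825 ± 1817 CPM, SD) than in PF livers (9277 ± 4288). The log2 fold change was -2.35 (SE 0.831, 95% interval -4.14 to -0.56, edgeR adjusted p = 0.0382), and an exact two-sided permutation test over all 792 splits of the livers gave p = 0.0126. Averaged over livers on the log2 scale, where each liver has the same weight, the difference was -3.42. The call was kept in 5 of 12 fits with 1 liver left out, and lost without PF1 (edgeR adjusted p = 0.0828), PF2, PF3, PF4, AF3, AF4 or AF7.

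Saa2 followed the same order of livers, with 12409, 4507, 8781, 4453 and 3640 CPM in PF1 to PF5. AF values had a minimum of 18.9 in AF5, a median of 1035 and a maximum of 2532 CPM in AF2, again with no overlap with PF. Of all genes tested, 9.49% had every AF liver below every PF liver and 8.20% had every AF liver above. The mean was 6.07 times lower with alcohol, and the log2 fold change was -2.60 (SE 0.906, 95% interval -4.55 to -0.65, edgeR adjusted p = 0.0355; exact permutation p = 0.0139). This call was kept in 8 of 12 such fits, and lost without PF1 (0.0802 by edgeR), PF3, AF3 or AF7. The highest and the lowest AF liver differed 134 times in Saa2 and 79.5 times in Saa1, against 3.41 and 3.07 times in PF livers. The SD of log2 CPM among AF livers was 2.80 for Saa2 and 2.45 for Saa1, larger than that of 99.8% and 99.3% of the 1362 tested genes with a mean of at least 100 CPM.

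Because reads from near-identical mRNAs can be split between Saa1 and Saa2 in counting, their counts were also added before the fit. The sum had a log2 fold change of -2.45 (SE 0.859, edgeR adjusted p = 0.0368). Saa1 had 1.26 to 1.65 reads for each Saa2 read in PF livers and 1.24 to 3.27 in AF livers, with the highest ratio in AF5. The direction of the sum was kept with any liver left out, but the adjusted p by edgeR was above 0.05 without PF1 (0.0812), PF2 (0.0531), PF3 (0.0671), PF4 (0.0505), AF3 (0.0636), AF4 (0.0552) or AF7 (0.0562). Without PF1 and AF1 together the log2 fold change was -1.94 with an edgeR adjusted p of 0.0905. By limma-voom it was -3.48, and Saa2 alone did not pass (-3.73, limma adjusted p = 0.0554).

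Saa3 (chr7:46711998-46715700, minus strand), a serum amyloid A gene that macrophages and fat cells also express, was far less abundant. Its mRNA was 62.4% identical to that of Saa1. PF1 to PF5 had 27.0, 15.4, 76.6, 18.5 and 30.99 CPM, and AF livers a minimum of 6.39, a median of 27.0 and a maximum of 30.6 CPM. The medians of both groups were at 27.0 CPM and the ranges overlapped, with PF3 alone above 30.99 CPM. The log2 fold change was -0.60 (95% interval -1.51 to 0.30, edgeR adjusted p = 0.263), and it was -0.05 without PF3. AF1 and AF5, the livers with the least Saa1 and Saa2, also had the least Saa3 among AF livers, at 13.3 and 6.39 CPM.

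The orosomucoid genes encode alpha-1-acid glycoproteins, plasma carriers of basic and neutral lipophilic compounds. Orm1 (chr4:63344560-63348163), Orm3 (chr4:63356162-63359511) and Orm2 (chr4:63362449-63365878) lie in this order on the plus strand of chromosome 4. The Orm1 and Orm2 mRNAs were 91.0% identical with a shared stretch of 141 bases, Orm2 and Orm3 88.0%, and Orm1 and Orm3 86.1%. The upstream regions of Orm2 and Orm3 were 85.5% identical, and are shown because Orm2 was lower in AF livers while Orm3 did not pass the test. They are from RefSeq (GRCm38.p6), chr4:63362199-63362448 for Orm2 and chr4:63355908-63356157 for Orm3, both on the plus strand, 5′ to 3′, with the letters TTGCNNAA in capitals.
Orm2: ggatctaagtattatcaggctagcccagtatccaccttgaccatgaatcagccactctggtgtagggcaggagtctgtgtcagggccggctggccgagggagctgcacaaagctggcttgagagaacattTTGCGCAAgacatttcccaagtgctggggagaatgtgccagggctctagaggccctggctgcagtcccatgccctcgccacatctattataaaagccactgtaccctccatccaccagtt
Orm3: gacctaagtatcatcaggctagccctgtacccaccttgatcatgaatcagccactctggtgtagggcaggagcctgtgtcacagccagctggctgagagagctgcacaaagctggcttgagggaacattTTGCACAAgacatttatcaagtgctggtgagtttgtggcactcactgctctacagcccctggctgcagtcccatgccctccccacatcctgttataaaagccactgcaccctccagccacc
The matching letters began 120 bases before the start in Orm2 and 121 in Orm3.

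Orm1 had 6129, 3356, 4948, 4202 and 3728 CPM in PF1 to PF5, and a minimum of 1152, a median of 2086 and a maximum of 3859 CPM in AF livers. Of the 7 AF livers, 6 lay below the lowest PF liver, and AF4 reached into the PF range. The mean was 1.91 times lower in AF, and the log2 fold change was -0.93 (SE 0.295, 95% interval -1.57 to -0.29, edgeR adjusted p = 0.0238; exact permutation p = 0.0114). Among the 10 genes this was the call that was kept most often with 1 liver left out, in 10 of 12 fits. It was lost without PF1 (edgeR adjusted p = 0.0643) and without PF3 (0.0513), and with library totals (-0.60, adjusted p = 0.0673).

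Orm2 had 4009, 1653, 2968, 2443 and 2141 CPM in PF1 to PF5. AF livers had a minimum of 299 in AF1, a median of 1123 and a maximum of 2291 CPM in AF4, and 6 of 7 lay below the lowest PF value. The mean was 2.42 times lower with alcohol, and the log2 fold change was -1.27 (SE 0.454, 95% interval -2.25 to -0.30, edgeR adjusted p = 0.0391; exact permutation p = 0.0164). The call was kept in 5 of 12 fits with 1 liver left out, and lost without PF1, PF3, PF4, PF5, AF3, AF5 or AF7, with adjusted p-values up to 0.0969 by edgeR (without PF1), and with library totals (-0.96, 0.0704).

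Orm3 showed another pattern. PF1 to PF5 had 132, 73.1, 112, 83.6 and 87.8 CPM, and AF livers a minimum of 40.8, a median of 128 and a maximum of 187 CPM. AF livers lay on both sides of the PF range, 3 below it (AF1, AF3 and AF5) and 3 above it (AF2, AF4 and AF6). The log2 fold change was 0.26 (95% interval -0.48 to 1.00, edgeR adjusted p = 0.572). Orm3 made up 1.24 to 1.47% of the summed Orm level in PF livers and 2.27 to 3.98% in AF livers, without overlap. Orm1 exceeded Orm2 1.53 to 2.03 times in PF and 1.68 to 3.86 times in AF livers, with the 3 highest ratios in AF1, AF5 and AF3. The summed counts of the 3 genes had a log2 fold change of -1.02 (SE 0.346, edgeR adjusted p = 0.0321), a value that depends less on how shared reads were assigned. For the sum, the adjusted p by edgeR was above 0.05 without PF1 (0.0834), PF3 (0.0642), PF4 (0.0519), AF3 (0.0617), AF5 (0.0546) or AF7 (0.0505), with library totals (-0.69, 0.0706), and without PF1 and AF1 (-0.73, 0.107).

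Haptoglobin (Hp, chr8:109575128-109579172, minus strand) binds free haemoglobin in plasma. It was the steadiest of the 10 genes in PF livers, with 10031, 8734, 9051, 9020 and 7675 CPM in PF1 to PF5. AF livers had a minimum of 3100, a median of 4456 and a maximum of 8980 CPM. AF6 held the maximum and lay within the PF range, and the other 6 lay below it. The mean was 1.75 times lower in AF, and the log2 fold change was -0.81 (SE 0.270, 95% interval -1.39 to -0.23, edgeR adjusted p = 0.0302; exact permutation p = 0.00884). The call was kept in 7 of 12 fits with 1 liver left out. It was lost without PF1 (edgeR adjusted p = 0.0631), PF2 (0.0545), PF3 (0.0564), PF4 (0.0566) or AF3 (0.0603), and with a filter at 1 count in any library (0.0552), and without AF6 the log2 fold change was -1.0 (0.00352).

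Apcs (chr1:172893961-172895041, minus strand) encodes serum amyloid P component, a pentraxin that binds amyloid fibrils and bacterial surfaces. It is one of the 2 genes in whose upstream window the letters TTCNNNGAA of the STAT motif were found, and is shown for that reason from RefSeq (GRCm38.p6, chr1:172895055-172895304, minus strand), 5′ to 3′, with the match in capitals.
Apcs: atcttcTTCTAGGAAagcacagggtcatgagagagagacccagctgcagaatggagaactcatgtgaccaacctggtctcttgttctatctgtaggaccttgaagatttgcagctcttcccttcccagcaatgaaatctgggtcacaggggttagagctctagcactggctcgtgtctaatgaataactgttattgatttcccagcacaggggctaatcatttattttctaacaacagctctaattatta
The match began 244 bases before the start site. The letters, which read the same on both strands, occurred in 7.02% of the 32851 windows. Socs3 had a match that began 154 bases before its RefSeq start. RefSeq windows were found for 8 of the 10 genes (not Orm1 and Hp), of which Lcn2 and Saa3 also had a match to the C/EBP letters, 216 and 99 bases upstream at their first base, Saa3 on the opposite strand. A 10-letter form of the NF-kB motif, present in 1.41% of windows on either strand, was in 0 of the 8, which says only that its letters are not in these windows. No match overlapped another. The windows of Socs3 and Lcn2 lie within the annotated spans of these genes, which begin further upstream than the RefSeq start. Their matches are therefore upstream of the RefSeq start only.

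Apcs had 709, 300, 498, 338 and 396 CPM in PF1 to PF5, and a minimum of 98.1, a median of 153 and a maximum of 514 CPM in AF livers. Of the 7 AF livers, 6 lay below the lowest PF liver, while AF4 exceeded 4 of the 5 PF livers. The log2 fold change was -1.02 (SE 0.386, 95% interval -1.85 to -0.18, edgeR adjusted p = 0.0507; exact permutation p = 0.0253), just outside the threshold. With 1 liver left out it came under the threshold in 1 of 12 fits, without AF4 (-1.37, edgeR adjusted p = 0.00582). It did so in 5 of 9 other settings, among them DESeq2 (-1.04, adjusted p = 0.0229), but not with library totals (-0.64, edgeR adjusted p = 0.176). AF5, which had the least Saa1 and Saa2, had the second highest Apcs level of the AF livers, at 281 CPM.

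Lipocalin 2 (Lcn2, chr2:32384633-32388252, minus strand) binds bacterial siderophores and so withholds iron. It had 1506, 675, 1783, 1474 and 1110 CPM in PF1 to PF5. AF livers had a minimum of 736, a median of 1407 and a maximum of 3914 CPM, and AF4 alone lay above the PF range. The group medians were close and the ranges overlapped, with a log2 fold change of 0.35 (95% interval -0.44 to 1.14, edgeR adjusted p = 0.462). Without AF4 it was -0.01. AF1, with little Saa1, Saa2 and Orm2, had 1709 CPM, the second highest of the AF livers.

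Socs3 (chr11:117966079-117970047, minus strand), the feedback inhibitor, was the least abundant of the 10 genes. PF livers split into 33.7 and 34.9 CPM in PF1 and PF2, 17.9 CPM in PF5, and 9.09 and 8.26 CPM in PF3 and PF4. AF livers had a minimum of 3.42, a median of 9.75 and a maximum of 34.4 CPM, the maximum in AF6 and the next value at 13.01 CPM. The groups overlapped, and the log2 fold change was -0.73 (95% interval -1.87 to 0.40, edgeR adjusted p = 0.278). Without AF6 it was -1.23, with an edgeR adjusted p of 0.0375. Only AF3 and AF5 lay below the lowest PF liver.

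**Figure D3:**
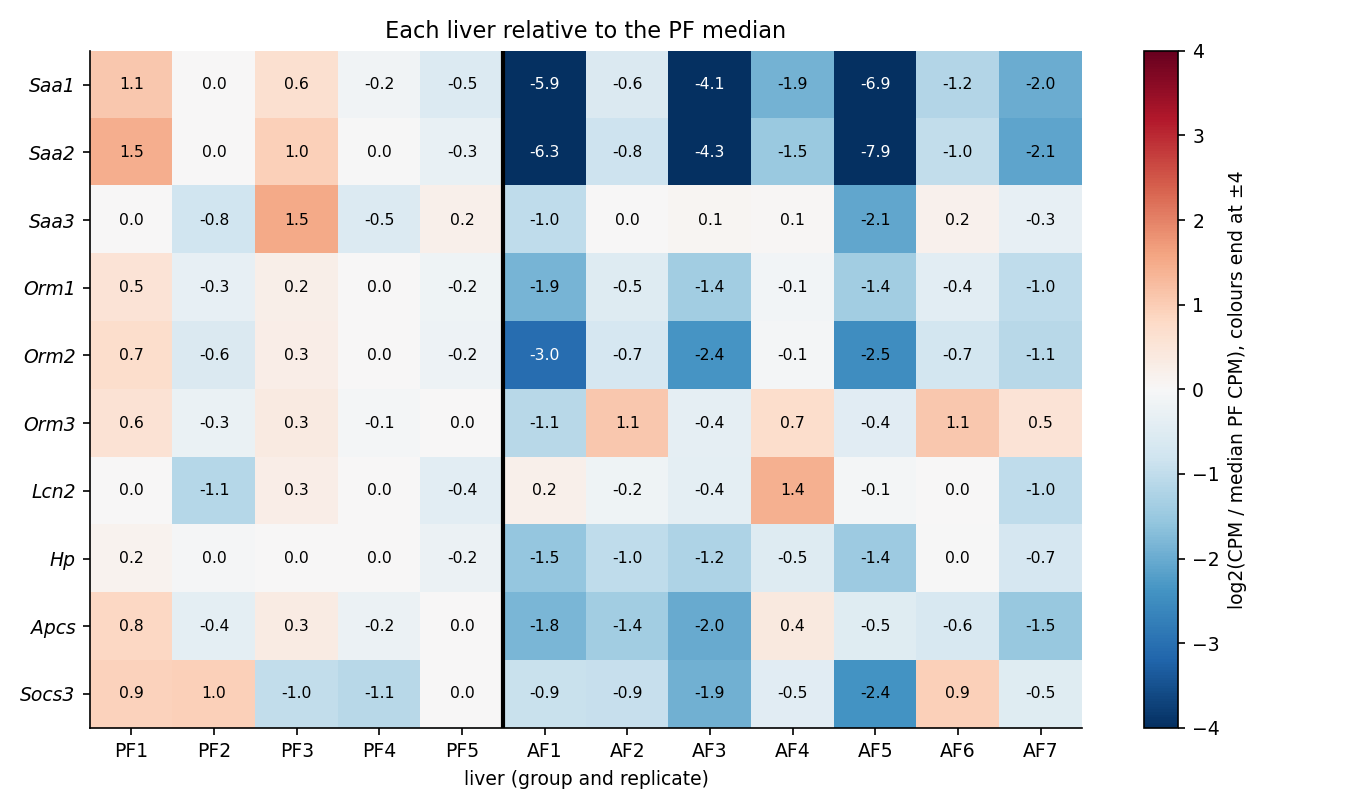
Log2 ratio of each liver's CPM to the PF median of the same gene, for the 10 acute phase genes (rows) and the 12 livers (columns, PF left and AF right of the line). Blue is below and red above the PF median, and colours end at 4 in either direction. AF1, AF3 and AF5 are the darkest columns for Saa1 and Saa2, and Orm3 and Lcn2 hold the only AF cells more than 1 log2 unit above the PF median.

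The order of the AF livers was similar from gene to gene. AF1 was among the lowest 2 of the 7 AF livers for 8 of the 10 genes, and so was AF5, while AF3 was among the lowest 3 for 9. AF4 and AF6 were each among the highest 3 for all 10 genes. The exceptions were Lcn2 and Socs3 for AF1, Lcn2 and Apcs for AF5, and Saa3 for AF3. The same livers differed in other measures: the summed level of 8 hepatocyte markers was 60606 CPM in AF1, 81849 in AF3 and 66425 in AF5, against 54958 in AF4 and 102930 in AF6. Most of this sum was Alb, itself a negative acute phase gene. The other 7 markers summed to 15755 CPM in AF1, 19106 in AF3 and 16179 in AF5, against 17811 in AF4 and 25101 in AF6. These 7 included Apoa1, Ttr and Trf, which are negative acute phase genes too, so leaving out Alb did not remove the overlap. The summed level of 6 bile duct markers was 1092 CPM in AF1, 335 in AF3 and 746 in AF5, against 444 in AF4 and 87.4 in AF6. Most of this sum was the single gene Spp1, at 1048 CPM in AF1, 320 in AF3, 720 in AF5, 428 in AF4 and 82.2 in AF6. The part of the cells behind these markers in the order of livers was not tested.

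As a share of the library, the 10 genes took 2.10 to 4.27% of the reads in PF livers and 0.827 to 2.55% in AF livers, and the groups overlapped only through AF4. Saa1 and Saa2 together took 0.766 to 2.36% in PF livers. In AF livers they took at most 0.771%, in AF2, which was above the lowest PF share, and 0.00927% in AF5. The 3 Orm genes took 0.423 to 0.865% in PF and 0.203 to 0.773% in AF livers.

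**Figure D4:**
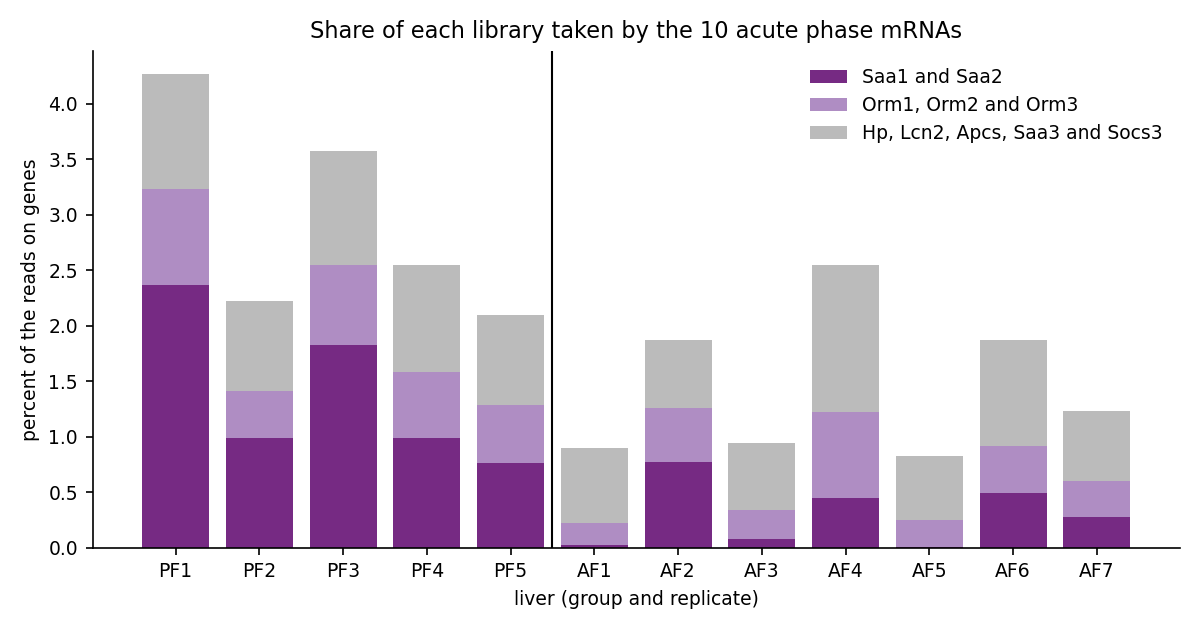
Percent of the reads on genes taken by the 10 acute phase genes in each liver, split into Saa1 and Saa2 (dark), the 3 Orm genes (light) and the other 5 genes (grey). The stacks reach 2.10 to 4.27% in PF and 0.827 to 2.55% in AF livers, and the dark segment nearly vanishes in AF1, AF3 and AF5.

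Levels between genes were compared per length, as CPM per kb of the mRNA of the principal transcript. In PF livers the order was Saa1 (15233 ± 7042, SD), Saa2 (11151 ± 6181), Hp (6619 ± 627), Orm1 (5771 ± 1420), Orm2 (3410 ± 1162), Lcn2 (1431 ± 468), Apcs (462 ± 169), Orm3 (126 ± 30.9), Saa3 (60.7 ± 44.7) and Socs3 (8.14 ± 5.06). Neighbours among the first 4 did not differ by more than the larger SD. In AF livers Hp came first (3784 ± 1549 CPM per kb), before Orm1 (3028 ± 1282), Saa1 (2997 ± 2984), Saa2 (1837 ± 1754), Lcn2 (1826 ± 1132) and Orm2 (1411 ± 946). None of these 6 differed from its neighbour by more than the larger SD, so that their order in AF livers is not resolved. They were followed by Apcs (228 ± 151), Orm3 (151 ± 77.4), Saa3 (40.0 ± 16.4) and Socs3 (4.90 ± 4.04), of which Apcs and Orm3 overlapped.

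The signalling genes upstream were read from the same fit, in lists of 10 cytokines, 9 receptors, 13 kinases and transcription factors and 8 feedback inhibitors. Of the 34 of these 40 genes that could be tested, 8 were higher (23.5%) and 6 lower (17.6%) in AF livers, shares near those of all genes tested (22.0% and 17.8%), and their median log2 fold change was -0.10. The split moved with the setting: it was 13 higher and 2 lower with library totals (median 0.24), 5 and 8 with RLE, 5 and 3 without PF2, 7 and 10 without AF6, and 5 and 3 without PF1 and AF1, and with any 1 liver left out it ranged from 5 to 8 higher and from 3 to 10 lower. Il6 itself, the main inducer, had 2 to 6 reads per PF and 1 to 7 reads per AF library and was not tested. DESeq2, which tested it, gave a log2 fold change of -0.54 with an SE of 0.648 (adjusted p = 0.549), so that these counts leave a wide interval around Il6. Of the 5 cytokines tested, Tnf (log2 fold change 2.19, SE 0.406, edgeR adjusted p = 0.00138), Il1a (0.73, 0.0453) and Clcf1, a gp130 ligand (2.86, 2.73e-05), were higher in AF livers, while Il1b was at -0.01 (0.980). Tnf remained low, at 0.137 to 0.679 CPM in PF and 1.03 to 3.04 CPM in AF livers. The Il1a call was kept only without PF3, PF4 or AF6 when 1 liver was left out, and edgeR adjusted p-values rose up to 0.105 (without PF1).

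Among the receptors, Lifr, the receptor of leukaemia inhibitory factor, changed most. It fell from 325 ± 45.1 to 93.7 ± 24.1 CPM (log2 fold change -1.80, SE 0.171, edgeR adjusted p = 1.3e-05), and the groups did not overlap. Il1rap, the second chain of the interleukin 1 receptor, fell (-1.07, edgeR adjusted p = 0.00529), as did Il6ra, the interleukin 6 receptor (-0.76, 0.0210; lost without PF2, 0.0730, and with library totals, -0.43, 0.0683). Il22ra1 (1.17, 0.00229) and Osmr, the oncostatin M receptor (0.71, 0.0456), were higher by the same test, the latter in a call that was kept only without PF4, AF2, AF3 or AF7 when 1 liver was left out, with values up to 0.111 (without PF2). Il6st, which encodes gp130, was at -0.18 (edgeR adjusted p = 0.193), and at 0.18 with library totals.

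Among transcription factors, Cebpb, a C/EBP factor induced in the acute phase, was lower (log2 fold change -0.98, edgeR adjusted p = 0.0283), with 12.4 to 38.6 CPM in PF livers and 6.83 to 22.1 CPM in AF livers. The call was lost without PF1 (0.0579), PF2 (0.102), AF3 (0.0539) or AF5 (0.0508). Nr3c1, the glucocorticoid receptor, was also lower (-0.59, edgeR adjusted p = 0.000312) without overlap. With library totals in place of TMM both calls were lost, with Cebpb at -0.64 (edgeR adjusted p = 0.0757) and Nr3c1 at -0.24 (0.103). Rela (0.58, 0.0198; lost without PF3, 0.0548) and Nfkb1 (0.33, 0.0483), both NF-kB subunits, were higher by the same test. With 1 liver left out, the Nfkb1 call was kept only without AF5, AF6 or AF7. Stat3 was at -0.55 with an edgeR adjusted p of 0.0506. AF6 had 230 CPM, above every PF liver, while the other AF livers had 87.5 to 127 CPM. Without AF6 it was -0.75 (0.000872). Cebpd was at -0.63 (edgeR adjusted p = 0.184). Of the feedback inhibitors, Ptpn1, a tyrosine phosphatase, was higher (0.38, edgeR adjusted p = 0.0218; lost without PF2 or PF5), and Socs1 had 2 to 3 reads per PF and 2 to 8 per AF library and was not tested.

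**Figure D5:**
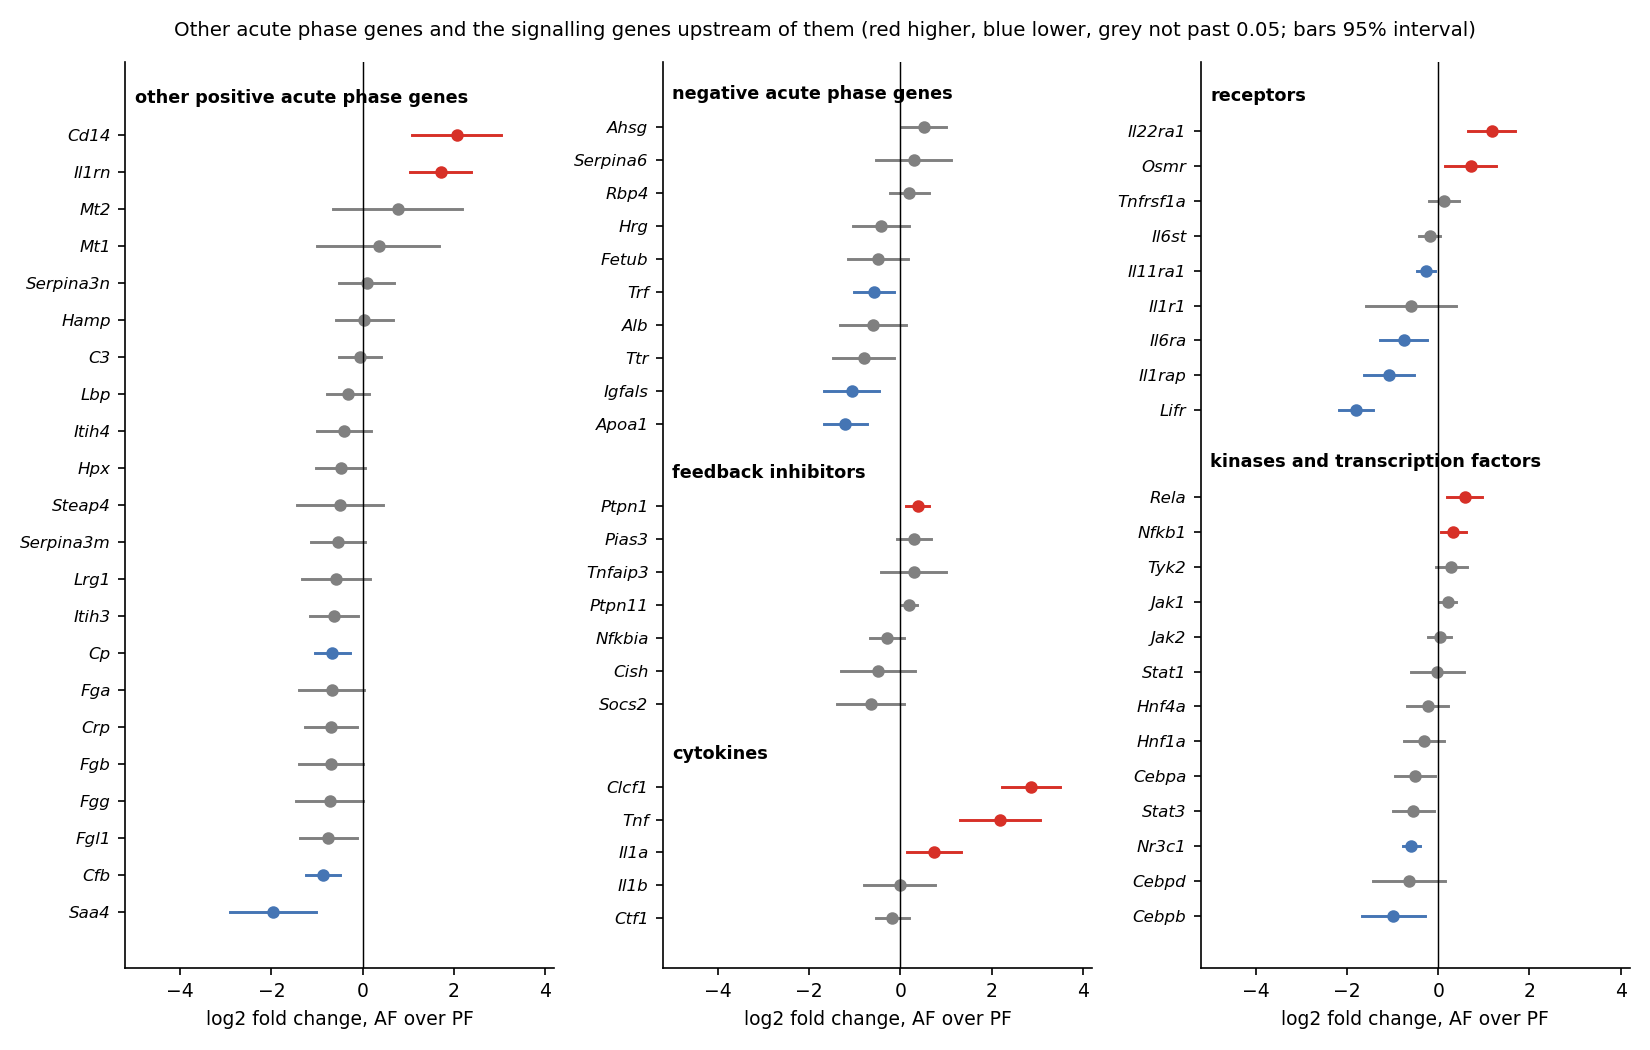
Log2 fold change of AF over PF by edgeR, with 95% intervals, for the other acute phase genes and for the cytokines, receptors, kinases and transcription factors and feedback inhibitors upstream. Red genes were higher and blue genes lower at an adjusted p below 0.05, and grey genes did not pass. Saa4 is the lowest of the other positive acute phase genes at -1.97, and Cd14 the highest at 2.06.

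The 23 other positive acute phase genes had 22 members tested, of which 3 were lower (13.6%, against 17.8% of all genes tested) and 2 higher (9.09%, against 22.0%), with a median log2 fold change of -0.52. Saa4, the constitutive serum amyloid A gene, was lower (-1.97, SE 0.439, edgeR adjusted p = 0.00400). It had 1212 to 1923 CPM in PF livers and 107 to 999.7 CPM in AF livers, without overlap, and AF1, AF5 and AF3 were again the lowest, at 107, 174 and 201 CPM. Complement factor B (Cfb, -0.87, edgeR adjusted p = 0.00186) and ceruloplasmin (Cp, -0.66, 0.0104) were lower as well, though with library totals Cp was at -0.30 (edgeR adjusted p = 0.167). The genes that rose were Cd14, a receptor for bacterial lipopolysaccharide that is also a macrophage gene (2.06, 0.00372), and Il1rn, the interleukin 1 receptor antagonist (1.71, 0.00114). Crp (-0.70, edgeR adjusted p = 0.0514), the fibrinogen gene Fgb (-0.70, 0.0992), Serpina3n (0.10, 0.806) and Hamp, which encodes hepcidin (0.04, 0.931), did not pass. The number of lower genes was 2 with library totals (median -0.24). It was 11 without AF6, 6 without AF2, 5 without AF4 or AF7 and 3 without PF1 and AF1. By DESeq2 it was 7, and it was 12 by limma-voom with quality weights and with the replicate block.

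Of the 10 negative acute phase genes, whose proteins fall in plasma during the response, 3 were lower (30.0%, against 17.8% of all genes tested) and 0 higher (against 22.0%), with a median log2 fold change of -0.54. There were 5 lower and 1 higher (Ahsg) by DESeq2, 2 lower and 2 higher (Ahsg and Rbp4) with library totals, 6 lower and 1 higher by limma-voom with quality weights, 6 lower with the replicate block, 2 to 4 lower and 0 higher with 1 liver left out, and 2 lower and 0 higher without PF1 and AF1. At an unadjusted p below 0.05, 4 were lower and 1 higher, against 22.3% and 27.3% of all genes tested. Apoa1 (-1.21, edgeR adjusted p = 0.00117), Igfals (-1.07, 0.00958) and Trf, which encodes transferrin (-0.58, 0.0330), were lower, the Trf call being lost without PF1 (0.0973), PF2, PF4, AF1, AF3 or AF5, with library totals (-0.24, 0.191), and with a filter at 1 count in any library (0.0724). Alb was at -0.60 (edgeR adjusted p = 0.164) and Ttr, transthyretin, at -0.80 (0.0564). The medians of the positive and the negative list therefore lay on the same side of 0.

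Markers of other cells were read beside these values. Of all genes tested, 17.8% were lower and 22.0% higher. Of 8 hepatocyte markers, 3 were lower (Apoa1, Trf and Cps1) and 0 higher by edgeR. Apoa1 and Trf are the same calls as in the negative acute phase list. The lower count was 2 with library totals, without PF1, PF2, PF4, AF1, AF3 or AF5, and without PF1 and AF1 together. It was 6 without AF6 and 6 with the replicate block, 5 by DESeq2, and 7 by limma-voom with quality weights. The summed level of these markers was 101125 to 141509 CPM in PF and 54958 to 105495 CPM in AF livers. Of 10 macrophage markers 8 were higher, with sums of 995 to 1562 CPM in PF and 1876 to 5078 CPM in AF livers. The 12 neutrophil markers had 0 calls in either direction by edgeR, and 5 were lower at an unadjusted p below 0.05. Other fits called some of them in either direction: edgeR called 5 lower without PF2, 2 lower without PF4, 1 higher without AF5 and 1 higher with library totals, DESeq2 called 1 lower, and limma-voom with quality weights called 1 higher. Without PF1, 0 were lower and 1 was higher at that unadjusted level, and the median log2 fold change of the list moved from -1.48 to -0.04. Their sum was 67.2 to 1216 CPM in PF and 49.8 to 243 CPM in AF livers. Of the 5 bile duct markers tested 4 were higher (1 by limma-voom), with sums of 49.6 to 244 and 70.4 to 1092 CPM. These sums were mostly Spp1, the tested marker that did not pass (1.68, edgeR adjusted p = 0.0635). Of 5 fat cell markers only Cidec passed the main filter, and it was higher. DESeq2 tested all 5 and called 1 higher. Cidec was highest in AF6 (33.8 CPM), a liver with 0 reads of Adipoq, so it did not follow that marker. Adipoq, Plin1, Lep and Retn were each at 0 in some libraries. The part of these cells in the levels of the 10 acute phase genes was not tested.

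The genes most like each of the 10 in profile were taken from 12476 other genes with a mean of at least 1 CPM, by the root mean square (RMS) difference of centred log2 CPM over the 12 livers. This is a description without a test. For Saa1 they were Mup10 (RMS difference 0.800) and Ces3a (0.881), against an RMS of Saa1 around its own mean of 2.45. For Saa2 they were Ces3a (0.953) and Ces3b (1.05). Ces3a fell from a mean of 1881 CPM in PF to 274 CPM in AF livers. Among each other, Saa1 and Saa2 differed by 0.381. Hp was closest to Mbl1 (0.177), which encodes a mannose-binding lectin, and Smyd1 (0.191). Orm1 was closest to the acute phase genes Fgl1 (0.268) and Fga (0.285), and Orm2 to Ang (0.474) and Slc30a10 (0.482). Apcs was closest to Gm37824 (0.514) and C4bp (0.524), Socs3 to Pim3 (0.456) and Cxcl1 (0.457), and Lcn2 to Pgm3 (0.382) and Osmr (0.426). For Orm3 (Acot11, 0.288, and 1700113A16Rik, 0.395) and Saa3 (Srrm4os, 0.534, and 1110028F11Rik, 0.549) the likeness was to genes of low level in most cases.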

How the data were processed

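Liver RNA of 5 PF and 7 AF mice was sequenced after poly(A) enrichment with a stranded kit, 1 library per mouse. The submitters' processing notes name FastQC 0.10.1, TopHat2 2.0.13, HTSeq 0.10.0 and GRCm38. The authors deposited raw read counts per Ensembl gene, without normalization. The annotation and strand setting of the counting are not given in the sources used here, and the Cuffdiff2 test in the paper's methods cannot be repeated from counts. Reads of near-identical mRNAs may have been dropped or split between copies, which bears on the Saa and Orm genes.

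Columns were assigned to mice by group and replicate number, and 54165 of 54232 IDs were named through GENCODE release M21. The 10 genes and the lists of related genes and cell markers were chosen with earlier results of these data known. After TMM scaling and filterByExpr by group, 14168 genes were compared between AF and PF by the quasi-likelihood method of edgeR 4.0.16 (R 4.3.3). P-values were adjusted by Benjamini and Hochberg over all genes tested, and 0.05 was the threshold. Standard errors were derived from the F statistic. For single genes, mean log2(CPM + 0.1) was also compared over all 792 splits of the livers (exact, two-sided, unadjusted, smallest possible p 0.00126). Beside the 10 genes, the text names up to 3 genes of each list with the largest changes past the threshold in either direction, 17 central genes of the pathway, and the 2 genes most similar in profile to each of the 10. The main edgeR fit, DESeq2 and limma-voom without quality weights were also run on simulated counts. The other steps were not.

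Depth was 24129900 to 30578639 reads per library. For a gene without reads the upper limit is 3 reads (95% confidence), for counting error only. Alternatives were DESeq2 1.42.0, RLE, library totals, limma-voom (limma 3.58.1) with and without quality weights, 2 other filters, a pseudocount of 1, the replicate number as a block, and each library left out. The 31 pairs of libraries within groups differed by at least 21.5 times counting noise.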

Additional observations from a re-analysis of the deposited data

Results flagged for a closer look

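Samples far from the others of their group were sought among the 10 acute phase genes and the 33 related genes named with them, by Dixon's test at 95% in each group. Of 86 groups of values 10 passed, and about 4.3 are reached by chance, since the test marks about 1 in 20 groups. Among the acute phase genes, Saa3 in PF3 (76.6 CPM), Lcn2 in AF4 (3914 CPM) and Socs3 in AF6 (34.4 CPM) lay far above the other livers of their group. AF6 was also far above the other AF livers in Cebpb (22.1 CPM), Stat3 (230 CPM) and Saa4 (999.7 CPM). Clcf1 was highest in AF1 (10.9 CPM). In PF livers, Il1rn was highest in PF3 (27.6 CPM), Trf was highest in PF1 (6565 CPM), and Cp was lowest in PF2 (4636 CPM).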

How the results depend on the processing

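The number of acute phase genes lower in AF livers was 3 with library totals, 0 without PF1 and AF1 together (chosen after the data were seen), and 0 to 6 with 1 liver left out, and 4 to 6 under the other alternatives. The count of higher genes was 0 throughout. Summed Saa1 and Saa2 gave -2.89 to -2.15 with 1 liver left out (adjusted p 0.0239 to 0.0812 by edgeR), -1.94 without PF1 and AF1, -3.48 by limma-voom, -3.02 with quality weights and -4.41 with the replicate block. The sum of the Orm genes gave -1.22 to -0.86, -0.69 with library totals and -0.73 without PF1 and AF1, its call being lost under both. The lower count of the other positive acute phase genes was 2 with library totals, 7 by DESeq2, 6 with RLE, 6 by limma-voom, 12 with quality weights, and 3 to 11 with 1 liver left out. For the negative list, 1 gene was higher by DESeq2, 2 with library totals, and 1 by limma-voom with and without weights, and 5 were lower by DESeq2 and 6 with weights. Of the signalling genes 5 were higher with RLE, 13 with library totals, 5 to 8 with 1 liver left out and 5 without PF1 and AF1, and 2 were lower with library totals, 3 to 10 with 1 liver left out and 3 without PF1 and AF1. The cause was not tested.

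The replicate numbers did not pair the livers (correlations of same-numbered deviations from -0.076 to 0.115). With the number as a block over libraries 1 to 5 of each group, 6 acute phase genes were lower (Socs3 added), as were 12 other positive, 6 negative and 10 signalling genes, while Orm3 (-0.14) and Serpina3n (-0.2) changed sign.

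Other changes of sign were in genes near 0: Il1b (0.31) and Il6st (0.18) with library totals, Hamp by limma-voom (-0.10, -0.04 with weights), and Hamp (-0.11) and Il1b (0.02) without PF1 and AF1. With 1 liver left out, Hamp ranged from -0.14 to 0.16, Il1b from -0.21 to 0.32, Serpina3n from -0.06 to 0.22 and Lcn2 from -0.01 to 0.48.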

Other observations

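Beyond the comparisons above, Lif, a gp130 ligand too rare to be tested by the main filter, had 0 to 4 reads per PF library and 8 to 88 reads per AF library. DESeq2, which tested it, gave a log2 fold change of 3.4 with an SE of 0.722. Lif is named here because its values were seen not to overlap, so no p-value is given for it.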
